A study of Homo sapiens with 4 samples.

Results

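Heat shock proteins and chaperonins were examined in U87 cells, a human malignant glioma line, with and without knockdown of the receptor-type phosphatase gene PTPRN. The genes were taken by symbol from the deposited table: the HSP90, HSP70 (HSPA), small heat shock protein (HSPB), HSP60/HSP10 (HSPD1, HSPE1) and HSPH families, the J proteins (DNAJA, DNAJB, DNAJC) and the subunits of the cytosolic chaperonin CCT (CCT genes and TCP1). This gave 82 of the 19314 genes listed. Of these, 80 had a value and were tested, while DNAJB3 and DNAJB8 were listed without one.

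The series held 4 libraries, and all were used. There were 2 libraries titled PTP2, with the genotype PTPRN knockdown, and 2 titled SCR, with the genotype SCR, and the groups are called by these names. The study knocked PTPRN down with short hairpin RNAs cloned in the vector pLKO.1 and used a scrambled hairpin as control. It lists more than a single hairpin against PTPRN, and the labels do not say which one the PTP2 libraries carry. They also do not say whether replicates were separate cultures, so p-values measure only the spread between these libraries, which may be technical. Levels were FPKM (fragments per kilobase of transcript, scaled to the mapped total), which are per length, so levels of different genes can be set side by side. All tests were made with limma on log2(FPKM + 1) over the 16595 genes with a value, with Benjamini-Hochberg adjustment. A gene was said to rise or fall where its adjusted p was 0.05 or lower. It was termed differential where the fold change on the log2(FPKM + 1) scale was also 2 or more and the adjusted p 0.001 or lower. The added 1 makes changes of genes at low FPKM smaller than the ratio of their FPKM, so some genes whose FPKM differed by more than 2-fold were not termed differential.

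PTPRN itself had an FPKM of 12.1 and 11.7 with PTP2 and 84.8 and 85.0 with SCR. Between 18200000 and 19800000 reads per library were estimated from the step that 1 read makes in the FPKM of low genes. The growth protocol in the labels names hCMEC/D3, a brain endothelial line, while the cell line is given as U87. Of 10 endothelial markers, 0 reached an FPKM above 2.50 in any library, and CDH5 and CLDN5 were at 0.03 or below. The mesenchymal genes VIM (1918 to 4766) and CD44 (152 to 316), typical of cultured glioma lines, were abundant. TNC (263 to 689) and FN1 (51.5 to 425) were well expressed too, while NES and EGFR lay at 3.12 to 14.6. The glial markers GFAP and S100B were at 0.55 or below, and SOX2 and OLIG2 at 1.15 or below. Of 8 myeloid markers with a value, CD68, which lysosome-rich cells also express, was at 230.3 to 357 and the rest at 3.17 or below. In bulk RNA, a change in the make-up of the culture and a change in RNA per cell cannot be told apart.

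Chaperones bind unfolded or partly folded proteins and keep them from aggregating. HSP70 proteins work in cycles of ATP hydrolysis that J proteins start and nucleotide exchange factors end, and many of their clients go on to HSP90 or to the barrel-shaped chaperonins. Under heat or proteotoxic stress the factor HSF1 induces a subset of these genes, whereas the unfolded protein response induces those of the endoplasmic reticulum (ER). Many kinases, AKT among them, depend on HSP90 with its partner CDC37 for folding, and in this study PTPRN was examined as a binding partner of HSP90AA1.

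Chaperone transcripts were more abundant with PTP2. Their share of each library's summed FPKM was 1.13% and 1.15% in the controls and 1.39% and 1.41% after knockdown, and the sum over the 80 genes was 1.29 times as high. Of the 80 genes, 58 (72.5%) passed the test, against 57.9% of all 16595 genes. Among chaperone genes 40 (50.0%) rose and 18 (22.5%) fell, whereas over all genes 30.8% rose and 27.1% fell. Well expressed genes passed more often in general. Among the 6755 genes whose mean FPKM reached 10 in either group, 47.0% rose and 32.8% fell, and of the 54 chaperone genes at that level 35 (64.8%) rose and 12 (22.2%) fell. The median log2 fold change was 0.18 for the 80 genes and 0.01 for all genes, and 0.41 and 0.11 at the higher level. Differential genes were few. These were HSPA9, CCT5, DNAJC1, DNAJC2 and HSPB3 among those that rose, and HSPA2, HSPB6, HSPB7 and DNAJC4 among those that fell, making 9 of 80 (11.2%), against 6.69% of all genes, of which 2.63% were differential upwards and 4.06% downwards. This count was 0 with a pseudocount of 0.1, with a replicate block and without any one of the 4 libraries, where no gene of the whole table was differential by limma, while at least 9 chaperone genes still had a fold change of 2 or more. The groups did not overlap in 66 of the 80 genes (82.5%), against 75.6% of all genes. For 1 gene with 2 libraries per group, the smallest p of an exact permutation test is 0.333, and limma goes below it by pooling the spread over genes.

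**Figure D1:**
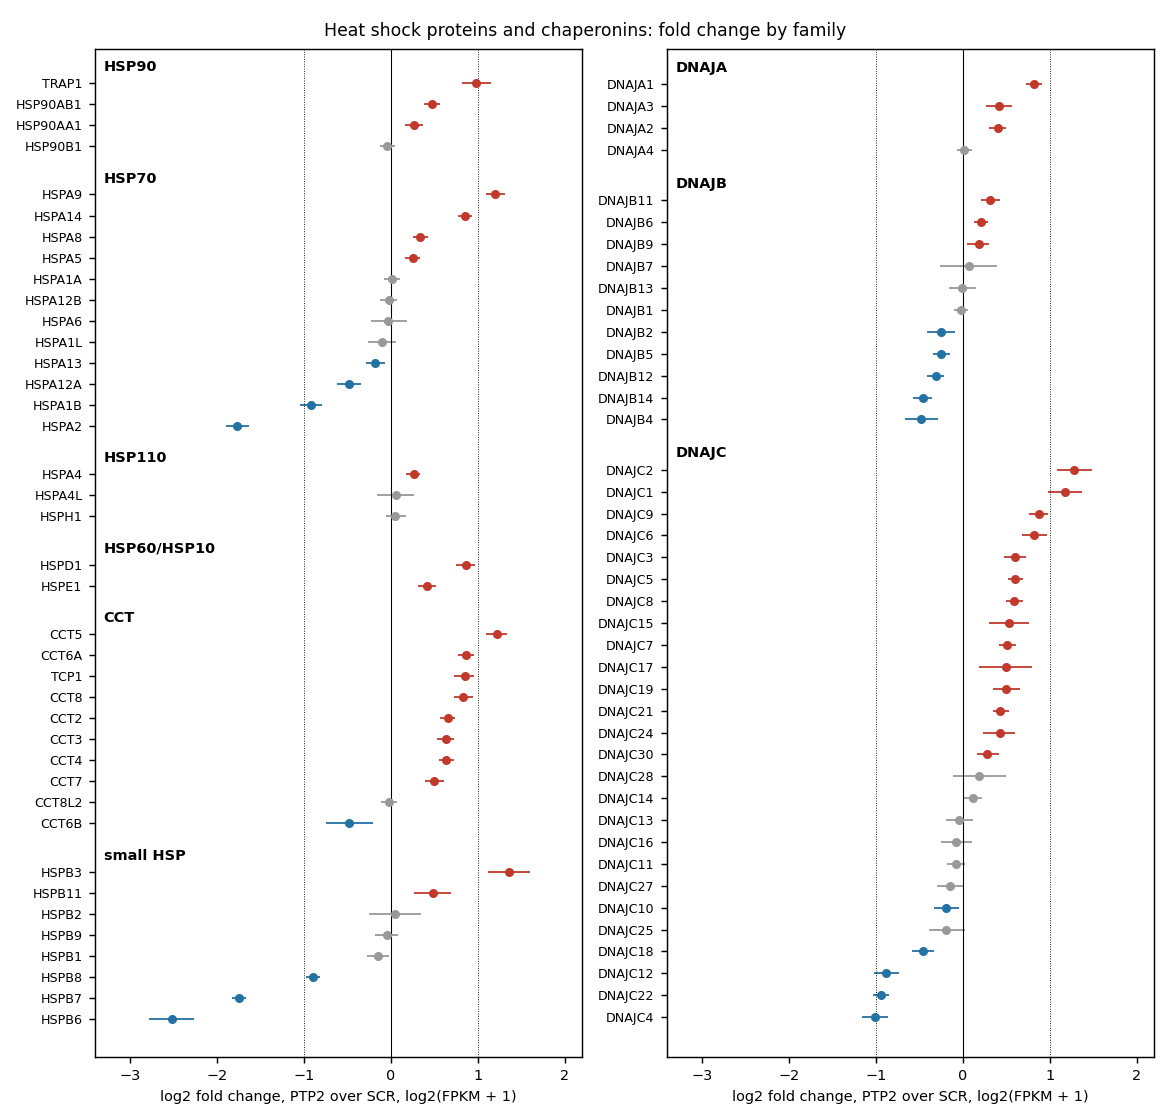
Log2 fold change (PTP2 over SCR, log2(FPKM + 1) scale) of the 80 chaperone genes with a value, by family. Points are limma estimates and bars their 95% confidence intervals, red for genes that rose, blue for genes that fell (adjusted p of at most 0.05) and grey for the rest; dotted lines mark a fold change of 2. The 8 ring subunits of CCT all lie at 0.50 or above, while the small heat shock proteins spread from -2.52 to 1.36.

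The cytosolic HSP90 genes were higher with PTP2, and the ER paralog was not shown to differ with FPKM as deposited. HSP90AB1, the constitutive cytosolic HSP90, was the most abundant chaperone transcript of the PTP2 libraries, with an FPKM of 705 and 707 against 502 and 515 with SCR. This was a log2 fold change of 0.47 with a standard error of 0.03 (limma, adjusted p = 0.00109). With quantile normalization it was 0.16 (adjusted p = 0.0196). HSP90AA1, the stress-inducible cytosolic form, had an FPKM of 540.1 and 549 with PTP2 and 444 and 463 with SCR. Both PTP2 libraries lay above both SCR libraries. The log2 fold change was 0.26 (95% interval 0.16 to 0.37, adjusted p = 0.0067, limma), which amounts to 1.20 times the control level. This call was lost with quantile normalization, where the value was -0.03 (adjusted p = 0.701), and without replicate 1 (0.28, adjusted p = 0.0641) or replicate 2 (0.25, adjusted p = 0.0711) of PTP2. The ratio of HSP90AB1 to HSP90AA1 within a library was 1.31 and 1.29 with PTP2 and 1.13 and 1.11 with SCR.

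HSP90B1 (GRP94), the HSP90 of the ER, was close to level, with 365 and 372 against 377 and 382. Its groups did not overlap, but the difference did not pass (log2 fold change -0.04, 95% interval -0.13 to 0.05, adjusted p = 0.331, limma). With quantile normalization HSP90B1 was lower with PTP2 (-0.18, adjusted p = 0.0248). TRAP1, the mitochondrial HSP90, was much the least abundant of the family and had the largest relative rise. It had an FPKM of 21.6 and 22.8 with PTP2 and 11.2 and 10.3 with SCR (log2 fold change 0.98, standard error 0.06, adjusted p = 0.000893, limma), and the ratio of its mean FPKM was 2.07.

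**Figure D2:**
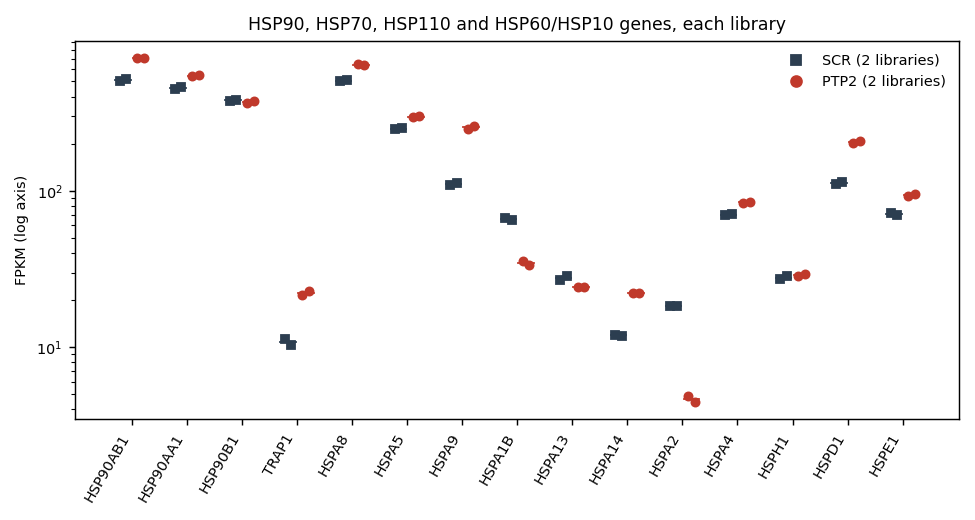
FPKM (log axis) of HSP90, HSP70, HSP110 and HSP60/HSP10 genes in each library, SCR as dark squares and PTP2 as red circles, with short lines at the group means. HSPA9, TRAP1, HSPA14 and HSPD1 stand well above their controls, HSPA2 and HSPA1B well below, and HSP90B1 and HSPH1 close to theirs.

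The partner proteins of HSP90 moved largely the same way. Of 16 HSP90 co-chaperone genes, 10 rose and 0 fell, with a median log2 fold change of 0.42. For comparison, 30.8% of all genes rose and 27.1% fell. At a group mean of 10 FPKM or more these shares were 47.0% and 32.8%, and at 100 or more 57.7% and 28.4%. Whether the list departed from these shares was not tested. STIP1 (HOP), which passes clients from HSP70 to HSP90, was the most abundant of them and had an FPKM of 236 in both PTP2 libraries and 119 and 124 with SCR (log2 fold change 0.95, adjusted p = 0.000403, limma). FKBP4, an immunophilin found in steroid receptor complexes, had the largest rise of the list, with 39.0 and 38.5 against 17.7 and 16.6, and was differential. CHORDC1, with 10.1 and 9.56 against 4.79 and 4.63, had a ratio of mean FPKM of 2.09 but a log2 fold change of 0.92 on the log2(FPKM + 1) scale (adjusted p = 0.000551). The kinase adaptor CDC37 rose as well (200.3 and 185 against 152 and 142, adjusted p = 0.00928). AHSA1, which stimulates the ATPase of HSP90, had 95.0 and 94.8 against 96.8 and 97.7 and did not pass (adjusted p = 0.378). The muscle co-chaperone UNC45B had the lowest value of the list (-0.04) at an FPKM of 0.04 or below.

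HSP70 genes moved in both directions. Of the 12 with a value, 4 rose, 4 fell and 4 did not pass, where 30.8% of all genes rose and 27.1% fell. A departure of the family from these shares was not tested. HSPA8 (HSC70), the constitutive cytosolic HSP70, had the highest level of the family with an FPKM of 647 and 633 with PTP2 and 503 and 509 with SCR (log2 fold change 0.34, adjusted p = 0.00227, limma). HSPA5 (BiP), the HSP70 of the ER, had 295 and 299 against 249 and 250.4 (log2 fold change 0.25, adjusted p = 0.00429). Both calls were lost with quantile normalization, with log2 fold changes of 0.05 for HSPA8 (adjusted p = 0.231) and 0.11 for HSPA5 (adjusted p = 0.0639). The mitochondrial HSP70, HSPA9 (mortalin), rose far more than either. It lies on chromosome 5 from 138554882 to 138575629 (GRCh38, minus strand) and had an FPKM of 249 and 261 with PTP2 and 109 and 112 with SCR. That is a log2 fold change of 1.20 (limma, standard error 0.04, adjusted p = 0.00036), and the ratio of HSPA9 to HSPA5 within a library was 0.846 and 0.873 against 0.440 and 0.447. HSPA14, which forms the ribosome-associated complex with DNAJC2, had 22.3 and 22.2 against 12.0 and 11.9 (log2 fold change 0.85, adjusted p = 0.000379).

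HSPA2, an HSP70 best known from the testis, had the largest fall of the family. It lies on chromosome 14 from 64540468 to 64543237 (plus strand) and had an FPKM of 4.89 and 4.49 with PTP2 and 18.4 and 18.3 with SCR (log2 fold change -1.77, standard error 0.05, adjusted p = 0.000299, limma). HSPA1B, one of the heat-inducible HSP70 genes, had 35.8 and 33.7 against 67.4 and 65.5 (log2 fold change -0.92, adjusted p = 0.000605). HSPA1A, its near-identical copy, was at 0.84 to 0.90 in all 4 libraries, and reads may be shared between the copies, so neither value is certain on its own. Their summed FPKM was 36.7 and 34.6 with PTP2 and 68.3 and 66.3 with SCR, so the fall did not depend on how the reads were divided. HSPA13, another ER member, fell by 0.18 on the log2 scale (adjusted p = 0.0227), and the atypical HSPA12A by 0.48 from a low level (adjusted p = 0.00288). Without either PTP2 library these calls were lost (adjusted p = 0.134 for HSPA13 in both cases, 0.0612 and 0.0623 for HSPA12A). HSPA6 and HSPA1L were at 0.44 to 1.05 in every library and HSPA12B at 0.06 or below, and the groups were not shown to differ for these (adjusted p = 0.789, 0.224 and 0.645).

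The HSP110 genes, exchange factors of HSP70, changed little. HSPA4 had an FPKM of 83.7 and 84.6 against 69.9 and 70.6 (log2 fold change 0.26, adjusted p = 0.00383, limma). HSPH1, which is strongly induced by heat, had 28.4 and 29.4 against 27.1 and 28.5, and the groups overlapped (log2 fold change 0.05, 95% interval -0.06 to 0.17). HSPA4L was below 2 in all libraries and did not pass (adjusted p = 0.564). Of 12 other HSP70 co-chaperones, 8 rose and 3 fell, where 47.0% and 32.8% of all genes at a group mean of 10 FPKM or more did so. The largest rise was that of GRPEL2, with 9.70 in both PTP2 libraries against 4.79 and 4.85, and its paralog GRPEL1 had 27.3 and 25.8 against 14.2 and 14.2. Both are the exchange factors of the mitochondrial HSP70. The largest fall was that of BAG6, a holdase for membrane proteins, with 53.9 and 55.9 against 78.6 and 77.9 (log2 fold change -0.50, adjusted p = 0.00116). ST13 (HIP) was the most abundant of the list in the PTP2 libraries (76.9 and 75.6) and rose by 0.15 on the log2 scale.

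Every subunit of the CCT ring rose. CCT (also TRiC) is a cytosolic double ring built from 8 different subunits and folds actin and tubulin among other clients. The mean FPKM of the 8 subunits was 153 and 149 with PTP2 and 88.9 and 87.8 with SCR, and their summed FPKM was 1.71 times as high. CCT5 (epsilon) had the largest change. It lies on chromosome 5 from 10249921 to 10266412 (plus strand) and had 189.7 and 179 against 79.7 and 77.6 (log2 fold change 1.22, standard error 0.04, adjusted p = 0.000407, limma). CCT7 (eta) had the smallest, with 180.3 and 172 against 125 and 124 (log2 fold change 0.50, adjusted p = 0.00148). The other 6 subunits lay between them, with log2 fold changes of 0.86 for CCT6A, 0.85 for TCP1, 0.83 for CCT8, 0.66 for CCT2, 0.63 for CCT3 and 0.63 for CCT4. In each of the 8 genes both PTP2 libraries lay above both SCR libraries. The call of all 8 was kept in all 13 alternatives tried, with log2 fold changes from 0.35 to 1.26. Of the 844 genes whose mean FPKM reached 100 in either group, 57.7% rose and 28.4% fell. Their median log2 fold change was 0.26, against 0.74 for the 8 subunits, and of the 18 chaperone genes at that level 16 rose and 0 fell.

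The levels of the subunits were somewhat closer to each other with PTP2. The coefficient of variation across the 8 was 18.8% and 17.6% with PTP2 and 22.5% and 21.2% with SCR. CCT5 passed from the lower part of the order with SCR to the highest mean level with PTP2 (184, followed by CCT7 at 176, whose replicates overlapped with those of CCT5, and TCP1 at 174). TCP1 overlaps ACAT2 on the opposite strand by 615 bases, and whether strand was used in counting is not given in the sources used here. ACAT2 itself was at 15.2 and 11.5 against 25.6 and 25.9. CCT6B, the testis form of the zeta subunit, was at 0.45 and 0.36 against 1.12 and 0.81 (log2 fold change -0.48, adjusted p = 0.0179), which corresponds to about 12 to 41 reads per library. Its call was lost without replicate 1 or 2 of PTP2 or replicate 1 of SCR (adjusted p = 0.134, 0.171 and 0.0788). CCT8L2 was listed at 0 in 3 libraries and at 0.03, about 1 read, in a single SCR library.

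**Figure D3:**
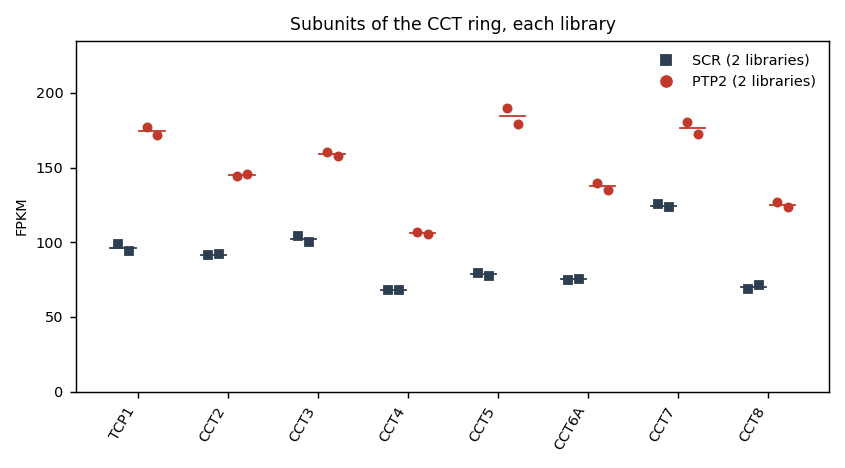
FPKM of the 8 subunits of the CCT ring in each library, SCR as dark squares and PTP2 as red circles, with short lines at the group means. The PTP2 libraries lie above the SCR libraries for every subunit, with the widest gap for CCT5 (184 against 78.7 on average).

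Prefoldin hands unfolded actin and tubulin to CCT. Of 12 prefoldin and CCT cofactor genes with a value, 8 rose and 0 fell, with a median log2 fold change of 0.44. The share that rose was 30.8% over all genes and 47.0% at a group mean of 10 FPKM or more. A departure of the list from these shares was not tested. PFDN6, PDCL, PDCL3 and URI1 did not pass. PFDN4 and PDRG1 were differential, with 32.4 and 31.2 against 12.3 and 11.4 for PFDN4 (log2 fold change 1.35) and 33.0 and 34.8 against 13.7 and 11.9 for PDRG1 (1.34). PFDN5, the most abundant, had 219 and 218 against 172 and 182 (0.30, adjusted p = 0.00641, limma). URI1 had the lowest value, -0.13 (adjusted p = 0.135).

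The mitochondrial chaperonin rose as well. HSPD1 (HSP60) forms the barrel and HSPE1 (HSP10) its lid. HSPD1 had an FPKM of 201 and 207 with PTP2 and 110.0 and 114 with SCR (log2 fold change 0.86, standard error 0.04, adjusted p = 0.000523, limma). HSPE1 had 92.6 and 95.8 against 71.6 and 69.5 (log2 fold change 0.41, standard error 0.04, adjusted p = 0.00207). HSPD1 thus rose more than its partner, and the ratio of HSPD1 to HSPE1 was 2.17 and 2.16 with PTP2 and 1.54 and 1.64 with SCR. The genes lie head to head on chromosome 2 and overlap by 278 bases on opposite strands, so a few reads may be shared. Of the 9 mitochondrial members of the families (HSPA9, HSPD1, HSPE1, TRAP1, DNAJA3, DNAJC11, DNAJC15, DNAJC19 and DNAJC30), 8 rose and 0 fell. Their summed FPKM was 1.77 times as high. Over all genes 30.8% rose, against 47.0% of those with a mean FPKM of at least 10 and 57.7% of those with at least 100. DNAJC11 had 26.8 and 26.5 against 28.9 and 27.7 and did not pass (adjusted p = 0.139). Mitochondrial proteases and related quality control genes were mixed. Of 7, 4 rose and 2 fell, where 47.0% and 32.8% of all genes at a group mean of 10 FPKM or more did so. YME1L1, an inner membrane protease, had the largest rise (59.2 and 60.8 against 36.3 and 38.3). CLPP, the most abundant, had 68.5 and 65.2 against 59.8 and 58.0 (log2 fold change 0.18, adjusted p = 0.0267, limma). SPG7 had the largest fall (log2 fold change -0.27), and the abundant matrix protease LONP1 fell as well (56.7 and 56.8 against 66.0 and 65.7, log2 fold change -0.21, adjusted p = 0.00599).

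A single 28-base stretch belongs to the promoter windows of both HSPD1 and HSPE1. In RefSeq (GRCh38.p14), windows from 250 bases before to 50 after the annotated start sites were searched for the E-box CACGTG, which reads the same on both strands. It was found in 8 of the 73 chaperone genes with a window and in 11.7% of all tested genes with one (7.26% of all windows). Of these 8 genes, 5 rose, 1 fell (DNAJC12), and DNAJC16 and HSP90B1 did not pass. Over all genes 30.8% rose and 27.1% fell. These shares were 47.0% and 32.8% at a group mean of 10 FPKM or more, and 57.7% and 28.4% at 100 or more. The shared site is shown because the windows of both partner genes hold it, and that of HSPA9 because this gene had the largest rise of the HSP70 family. Capitals mark the E-box:
HSPE1 and HSPD1, chr2:197500346-197500373, plus strand: ggtgattttttCACGTGtcgccagggcc
HSPA9, chr5:138575404-138575431, minus strand: gcccctcacccCACGTGgttggaggttt

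In the ER the members diverged. Of the 8 members listed as ER-resident, 5 rose (HSPA5, DNAJB9, DNAJB11, DNAJC1 and DNAJC3), 2 fell (HSPA13 and DNAJC10) and HSP90B1 did not pass. Their summed FPKM was 1.09 times the control level. Of all genes 30.8% rose and 27.1% fell, and at a group mean of 10 FPKM or more 47.0% and 32.8%. Whether the ER members departed from these shares was not tested. The list leaves out DNAJB12 and DNAJB14, which are anchored in the ER membrane, although DNAJC1 is a membrane protein too. Both of those left out fell (log2 fold changes of -0.31 and -0.46), so the count depends on this choice. DNAJC1, a J protein of the ER membrane, was differential. It lies on chromosome 10 from 21756548 to 22003721 (minus strand) and had 23.6 and 23.1 against 9.19 and 10.4 (log2 fold change 1.17, standard error 0.07, adjusted p = 0.000817, limma). DNAJB11 (ERdj3), a BiP partner, had 81.1 and 77.7 against 63.1 and 64.2 (log2 fold change 0.31, adjusted p = 0.00424), a call lost without replicate 1 or 2 of SCR (adjusted p = 0.0628 and 0.0574). DNAJC3 (p58IPK) had 20.4 and 21.6 against 13.3 and 13.8 (log2 fold change 0.60, adjusted p = 0.00142). DNAJB9 (ERdj4), which the unfolded protein response induces strongly, moved by 0.18 (9.75 and 9.58 against 8.74 and 8.14, adjusted p = 0.0349). DNAJC10 (ERdj5), a disulfide reductase, fell by 0.19 on the log2 scale (adjusted p = 0.0438).

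The other ER folding genes were more often lower. Of 12, 3 rose and 6 fell, with a median log2 fold change of -0.14. At a group mean of 10 FPKM or more, 47.0% of all genes rose and 32.8% fell. CALR, the most abundant, had 612 and 606 against 795 and 781 (log2 fold change -0.37, adjusted p = 0.00169, limma), and P4HB, a disulfide isomerase, 338 and 335 against 549 and 534 (-0.68, adjusted p = 0.000591). CRELD2 had the largest fall (-1.0), and DDIT3 (CHOP), the stress-induced transcription factor, the largest rise, with 60.6 and 54.4 against 35.1 and 34.2 (0.71, adjusted p = 0.00219). XBP1 and HYOU1 did not pass (adjusted p = 0.93 and 0.166).

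The ER stress response element, CCAAT and CCACG separated by any 9 bases, was searched on both strands and found in the windows of HSPA5 and HSP90B1, which makes 2 of 73 chaperone genes (2.74%) against 0.151% of all tested genes with a window and 0.0769% of all windows. The sites are shown because HSPA5 rose slightly while HSP90B1, with more than one site, did not pass. Capitals mark the fixed bases of the element:
HSPA5, chr9:125241386-125241414, minus strand: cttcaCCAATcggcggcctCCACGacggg
HSP90B1, chr12:103930211-103930239, plus strand: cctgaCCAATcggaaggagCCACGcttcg
HSP90B1, chr12:103930316-103930344, plus strand: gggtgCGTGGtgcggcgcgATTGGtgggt

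Heat-inducible members were mixed. Of 11 (HSPA1A, HSPA1B, HSPA6, HSPH1, HSPB1, HSPD1, HSPE1, HSP90AA1, HSPA8, DNAJB1 and DNAJA1), 5 rose, 1 fell and 5 did not pass. Their median log2 fold change was 0.05, and their summed FPKM was 1.19 times the control level. For comparison, 30.8% of all genes rose and 27.1% fell, and 47.0% and 32.8% at a group mean of 10 FPKM or more. Whether the list departed from these shares was not tested. DNAJB1 (HSP40), a J protein that HSF1 induces, had 92.6 and 92.1 with PTP2 and 93.2 and 94.1 with SCR (log2 fold change -0.02, 95% interval -0.10 to 0.06, adjusted p = 0.604, limma). HSPB1 (HSP27) is given with its family. Those that rose were DNAJA1, HSPD1, HSPE1, HSPA8 and HSP90AA1, and HSPA1B fell. Of the heat shock factors, HSF1 had an FPKM of 47.5 and 49.3 against 36.6 and 34.4 (log2 fold change 0.44, adjusted p = 0.00326) and HSF2 13.7 and 14.5 against 9.43 and 9.20 (0.55, adjusted p = 0.00144). HSF4 fell from a low level (1.46 and 1.48 against 3.75 and 2.58, -0.74, adjusted p = 0.0203), and HSF5 was at 0.06 or below. HSF activity is set mainly at the protein, which was not measured here. BAG3, a co-chaperone that HSF1 also induces, had 44.4 and 44.2 against 34.4 and 34.8 (0.35, adjusted p = 0.00178).

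A strict heat shock element was searched in the same windows on both strands, made of 3 units in turn (GAA, TTC, GAA or TTC, GAA, TTC) with any 2 bases between units. It was found in 7 of 73 chaperone genes (9.59%), against 0.543% of all tested genes with a window and 0.490% of all windows. Of these 7 genes 6 rose (HSP90AA1, HSP90AB1, HSPA8, HSPD1, DNAJA1 and DNAJB6), and HSPA6 did not pass. All 6 had a mean FPKM above 100 with PTP2, a level at which 57.7% of all genes and 16 of 18 chaperone genes rose, and the calls of HSP90AA1, HSPA8 and DNAJB6 were lost with quantile normalization. Elements with mismatches were not searched, and a match in sequence does not show that HSF1 bound there. A gene can have several annotated start sites, each with its own window. The sites shown for HSP90AA1, HSP90AB1, HSPA8, HSPD1 and DNAJA1 lie inside the deposited gene positions, in windows of start sites further downstream. One site per gene is shown, with the GAA and TTC units in capitals, so that the genes that rose can be set beside HSPA6, which stayed near 0.5 FPKM:
HSP90AA1, chr14:102087112-102087140, minus strand: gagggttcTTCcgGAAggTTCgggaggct
HSP90AB1, chr6:44247823-44247851, plus strand: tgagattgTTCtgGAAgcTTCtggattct
HSPA8, chr11:123062171-123062199, minus strand: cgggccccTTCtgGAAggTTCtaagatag
HSPD1, chr2:197500060-197500088, minus strand: attttctgGAAagTTCtgGAAccgagcga
DNAJA1, chr9:33025268-33025296, plus strand: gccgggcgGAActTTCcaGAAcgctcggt
DNAJB6, chr7:157336865-157336893, plus strand: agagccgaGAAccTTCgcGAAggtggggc
HSPA6, chr1:161524458-161524486, plus strand: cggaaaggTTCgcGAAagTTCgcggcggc

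Small heat shock proteins, ATP-independent holdases, held the largest rise and the largest fall of all 80 genes on the log2(FPKM + 1) scale. Of 8, 2 rose, 3 fell and 3 did not pass, where 30.8% of all genes rose and 27.1% fell. The summed FPKM of the 8 was 0.891 times the control level. Most of this sum was HSPB1, which did not pass and had a mean of 396 with PTP2 and 440 with SCR. HSPB6 (HSP20), known from heart and smooth muscle, fell the most. The gene lies on chromosome 19 from 35754566 to 35757029 (minus strand) and had an FPKM of 2.02 and 1.56 with PTP2 and 14.8 and 15.1 with SCR (log2 fold change -2.52, standard error 0.09, adjusted p = 0.000412, limma). HSPB7, a cardiovascular member, was nearly lost, with 0.08 and 0.10 against 2.67 and 2.66, or about 4 and 5 reads against 150 and 138. Its log2 fold change of -1.75 (adjusted p = 0.000172) is kept small by the pseudocount, since the ratio of mean FPKM was 0.0338. HSPB8 (HSP22), which works with BAG3 in autophagy of misfolded proteins, had 25.3 in both PTP2 libraries against 47.7 and 48.1 (log2 fold change -0.90, adjusted p = 0.000352). Its partner BAG3 rose, as given above.

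HSPB3, a small heat shock protein of muscle, moved the other way. Its gene, on chromosome 5 from 54455601 to 54456384 (plus strand), had 6.65 and 7.79 with PTP2 against 2.28 and 2.1 (log2 fold change 1.36, standard error 0.08, adjusted p = 0.000951, limma). HSPB2, with which HSPB3 forms complexes, was at 0 to 3 reads per library. HSPB11, which in spite of its symbol is a subunit of intraflagellar transport, had 60.7 and 56.8 against 39.5 and 44.3 (log2 fold change 0.48, adjusted p = 0.00924), and this call was lost without any one of the 4 libraries (adjusted p = 0.0501 to 0.113). HSPB1, by far the most abundant, had 400.2 and 392.2 against 454 and 426 (log2 fold change -0.15, 95% interval -0.28 to -0.02, adjusted p = 0.056). The groups did not overlap, and HSPB1 passed 0.05 in 6 of 13 alternatives, with log2 fold changes from -0.35 to -0.10. HSPB9 was at 1 or 2 reads. CRYAB (alpha B-crystallin), a small heat shock protein outside the symbols used here, also fell (2.94 and 2.55 against 4.92 and 5.0, log2 fold change -0.67, adjusted p = 0.00235). Of the 5 related genes outside these symbols that had a value, 2 rose (MKKS by 0.35 and BBS10 by 0.44, both chaperonin-like) and 2 fell.

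**Figure D4:**
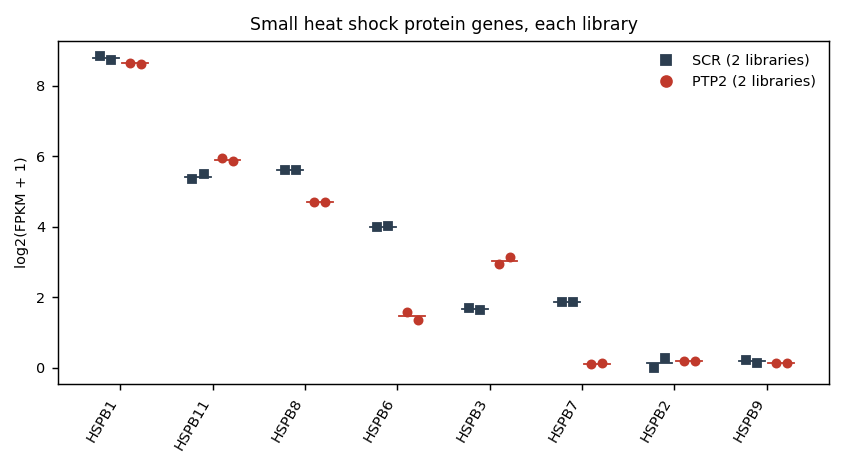
Level, as log2(FPKM + 1), of the 8 small heat shock protein genes in each library, SCR as dark squares and PTP2 as red circles, with short lines at the group means. HSPB8, HSPB6 and HSPB7 are lower and HSPB3 and HSPB11 higher with PTP2, while HSPB2 and HSPB9 lie near 0.

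Among J proteins, which choose the clients of HSP70, the classes differed in their counts. Of 4 DNAJA genes, 3 rose and 0 fell. Of 11 DNAJB genes, 3 rose and 5 fell, and of 26 DNAJC genes, 14 rose and 5 fell. The median log2 fold changes of the 3 classes were 0.40, -0.02 and 0.35. By comparison, 30.8% of all genes rose and 27.1% fell. At a group mean of 10 FPKM or more these shares were 47.0% and 32.8%. Whether any class departed from these shares, or the classes from each other, was not tested. DNAJA1, the most abundant J protein transcript with PTP2 and a general partner of HSPA8, had 189.6 and 185 against 106 and 105 (log2 fold change 0.82, standard error 0.03, adjusted p = 0.000455, limma). DNAJA2 and DNAJA3 had log2 fold changes of 0.40 and 0.41. DNAJA4 was at 0.04 or below.

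Among the DNAJB genes, DNAJB4 had the largest fall of the class (8.49 and 9.52 against 13.3 and 12.6, log2 fold change -0.48, adjusted p = 0.00667, limma), which did not pass without replicate 1 or 2 of SCR (adjusted p = 0.106 and 0.0884). DNAJB14 (-0.46) and DNAJB12 (-0.31), both anchored in the ER membrane, fell as well, and so did DNAJB5 (-0.25), though not without replicate 1 or 2 of PTP2 (adjusted p = 0.0629 and 0.0566). DNAJB2, a J protein with ubiquitin-interacting motifs, had 31.6 and 34.2 against 40.2 and 38.4 (-0.25, adjusted p = 0.0251). Its gene is the neighbour of PTPRN on chromosome 2. These genes lie tail to tail on opposite strands, with 2722 bases between their ends in the deposited positions. DNAJB6, which suppresses aggregation of polyglutamine proteins, had 107.8 and 108 against 93.5 and 93.4 (0.21, adjusted p = 0.00641), a call that was lost with quantile normalization (0.09, adjusted p = 0.0807).

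The largest changes of the DNAJC class were those of DNAJC2 and DNAJC1, the latter given above. DNAJC2 (MPP11), the partner of HSPA14 at the ribosome, lies on chromosome 7 from 103312474 to 103344873 (minus strand) and had 24.5 and 25.5 against 9.08 and 10.3 (log2 fold change 1.28, standard error 0.07, adjusted p = 0.000778, limma). Its gene overlaps PMPCB on the opposite strand by 2213 bases, and PMPCB was at 18.4 and 18.2 against 11.7 and 11.6. DNAJC9, a co-chaperone of histones H3 and H4, had 41.6 and 39.6 against 21.7 and 21.8 (0.87, adjusted p = 0.000523). DNAJC8, found with the spliceosome, DNAJC5, the cysteine string protein of secretory vesicles, and DNAJC7, which has TPR repeats for HSP70 and HSP90, had log2 fold changes of 0.59, 0.60 and 0.51. DNAJC6 (auxilin), which uncoats clathrin vesicles, had 3.40 and 3.72 against 1.63 and 1.52 (0.82, adjusted p = 0.000985), a ratio of mean FPKM of 2.26.

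In the other direction, DNAJC4 was differential. The gene lies on chromosome 11 from 64230281 to 64234281 (plus strand) and had 9.02 and 9.29 with PTP2 against 20.2 and 18.6 (log2 fold change -1.01, standard error 0.05, adjusted p = 0.000683, limma). DNAJC22 (-0.94) and DNAJC12 (-0.88), a partner of aromatic amino acid hydroxylases, also fell, with an FPKM below 8 in all libraries. Their ratios of mean FPKM were 0.458 and 0.441, lower than that of DNAJC4 (0.471), since the added 1 weighs more at low levels. The remaining J proteins that fell were DNAJC18 (-0.46) and DNAJC10. Among genes that did not pass, DNAJC13, an endosomal J protein, had 20.0 and 21.4 against 20.7 and 21.95, and its groups overlapped (adjusted p = 0.57). Among J proteins listed under other symbols, HSCB, SEC63 and GAK rose, with log2 fold changes of 0.49, 0.36 and 0.25.

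The size of the change of the most abundant chaperone genes depended on how libraries were scaled, and for HSP90AA1 the direction did too. With quantile normalization, the median log2 fold change of the 186 genes whose mean FPKM reached 400 went from 0.33 to 0.12, and that of the 844 genes with at least 100 from 0.26 to 0.11. HSP90AB1, HSPA8, HSP90AA1 and HSPB1 are among the former. HSPA9, HSPD1, DNAJA1 and the CCT subunits kept their rise under all 3 scalings.

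**Figure D5:**
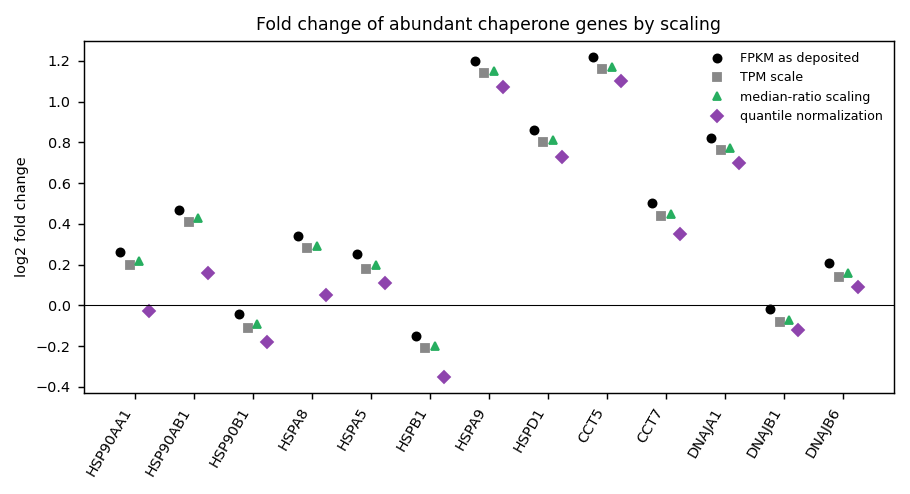
Log2 fold change (PTP2 over SCR) of 13 chaperone genes with FPKM as deposited (black circles), rescaled to equal totals (grey squares, TPM scale), with median-ratio scaling (green triangles) and with quantile normalization (purple diamonds). HSP90AA1 goes from 0.26 to -0.03 with quantile normalization and HSPA8 from 0.34 to 0.05, whereas HSPA9, HSPD1 and CCT5 stay above 0.7.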

How the data were processed

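RNA of 4 U87 libraries was sequenced by the authors on a BGISEQ-500 (single-end, 50 bases). The submitters' processing notes name HISAT2 (version 2.1.0) and the build hg19, while gene positions in the deposited table are on GRCh38. The counting program and annotation are not given in the sources used here. The authors deposited FPKM values with 2 decimals in 2 tables, and 0 of the 66380 values compared differed between them. Columns of the authors' own comparisons (fold changes, p-values) were not used.

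The chaperone genes and the other gene lists were chosen with earlier results of these data known. Genes named are all members outside the J proteins, J proteins that were differential, had a mean FPKM of at least 50 or were among the 5 largest rises or falls with a mean of at least 10, and in each list the differential, most abundant, most raised and most lowered genes. A result of 1 list gene is not reported here. Other genes, such as further J proteins, CDC37, CHORDC1, AHSA1, GRPEL1, BAG3, P4HB, XBP1, HYOU1 and LONP1, were chosen after their values were seen. Values were tested as log2(FPKM + 1) with limma (version 3.58.1, R 4.3.3; lmFit and eBayes, default options, 3.72 degrees of freedom), with the group as the only term, and the code was tested on simulated data. The pseudocount of 1 understates changes of low genes. Depth was estimated from single-transcript genes under 4 reads, where 85.9% to 91.8% of values lay within 0.15 of a whole read. As alternatives, the pseudocount was set to 0.1, genes under an FPKM of 1 in more than 2 libraries were dropped, and the fit was repeated with quantile, median-ratio and TPM scaling, with an eBayes trend, with a replicate block and without each library in turn. Promoter windows are from RefSeq (GRCh38.p14), and 73 of the 80 genes matched.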

Additional observations from a re-analysis of the deposited data

How the results depend on the processing

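With all libraries in the fit, 36 to 41 chaperone genes rose and 17 to 22 fell under the alternatives, against 40 and 18. Without any one library, 31 to 34 rose and 13 to 14 fell, and 43 to 47 of the 58 calls were kept. Of the 58 genes called, 54 kept call and direction with quantile normalization and 56 to 58 with the other alternatives that used all libraries. Of these, HSP90AA1 was the 1 gene whose direction turned, with a log2 fold change of -0.03 under quantile normalization. The count of 9 differential genes was 0 with a pseudocount of 0.1 and 0 with the replicate block, where limma left 0 of the 16595 genes differential, although 58 and 61 chaperone genes had an unadjusted p under 0.05. It was also 0 without any one library (54 to 57 genes with an unadjusted p under 0.05), and 9 genes still had a fold change of at least 2 in each of these 4 fits. The median log2 fold change of the chaperone genes (0.18) was 0.24 with a pseudocount of 0.1, with or without an eBayes trend, 0.28 with a minimum FPKM of 1, 0.10 with quantile normalization and 0.13 on the TPM scale. PTPRN ranged from -2.86 to -2.71. Deviations of same-numbered libraries had a correlation of 0.06 across 11272 genes. With 2 libraries per group this cannot show whether the replicate numbers pair the libraries, and the labels do not say. With the replicate block 58 chaperone genes were called, as without it. Summing HSPA1A and HSPA1B and the pseudocount of 0.1 with an eBayes trend were chosen after seeing the data. Members at a few reads, such as HSPB2, HSPB9, HSPA12B and DNAJA4, were too low for changes to be detectable.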
